A study of Mus musculus with 7 samples.

Results

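Collagens and laminins are the structural proteins of the extracellular matrix, and the mouse genes that encode them were followed across the cell types of the ventricular-subventricular zone (V-SVZ). A gene was taken when its symbol had the form Col, number, a, number, or began with Lama, Lamb or Lamc and a digit. This gave 55 of the 32285 genes in the count tables, of which 44 were collagen and 11 were laminin genes. By the known assembly of their chains, 11 are fibrillar collagens, 6 are basement membrane collagens, 6 are beaded filament collagens, 9 are fibril-associated collagens and 4 are transmembrane collagens. A further 3 are network collagens, 2 are multiplexins, 1 forms anchoring fibrils and 2 stand outside these classes. The laminins divide into 5 alpha, 3 beta and 3 gamma chains.

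The study asked what Prdm16, a transcription factor of radial glia, does in the postnatal transformation of these cells into adult neural stem cells (NSCs) and other niche cells. The V-SVZ was dissected from the lateral wall of each lateral ventricle at P31-33, dissociated with papain and sequenced as single cells, with the tissue of 2 to 3 mice of both sexes pooled in each library. There were 3 control libraries from mice with floxed Prdm16 alleles and no Cre (written Prdmflox/flox in the labels), 3 cKO libraries (hGFAP-Cre+/-; Prdm16flox/flox) and 1 DKO library (hGFAP-Cre+/-; Prdm16flox/flox; Vcam1flox/flox). All 3 genotypes thus carry floxed Prdm16 alleles, and only the DKO library carries floxed Vcam1 alleles. The hGFAP-Cre transgene acts in radial glia and in the cells that descend from them, and not in the lineages of endothelial cells, mural cells or microglia. The study's methods count each pool of mice as a biological replicate, and p-values measure the spread between these pools.

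Laminin trimers of an alpha, a beta and a gamma chain polymerize on cell surfaces and start the basement membrane, onto which a network of type IV collagen is laid. In the V-SVZ, basement membranes surround the blood vessels and extend between ependymal cells as branched fractones, on which NSCs rest. Fibrillar collagens are made mainly by fibroblasts, which in the brain are found around larger vessels and in the meninges and choroid plexus.

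Several of these genes lie head to head, and their shared or facing start regions are shown because the chains they encode join in the same trimer. Sequences are RefSeq's for GRCm38.p6, and coordinates of genes are those of GENCODE vM21 on GRCm38. Col4a1 lies on the minus strand of chromosome 8 from 11198423 to 11312826 and Col4a2 on the plus strand from 11312805 to 11449287, so that their first exons overlap in 22 bases at chr8:11312805-11312826, given here for the plus strand with a GC box (GGGCGG) in capitals.
Col4a1 and Col4a2: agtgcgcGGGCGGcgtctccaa
Col4a4 (minus strand) and Col4a3 (plus strand) face each other on chromosome 1 across 71 bases at chr1:82586850-82586920, also given for the plus strand, in which none of the motifs searched was found.
Col4a4 and Col4a3: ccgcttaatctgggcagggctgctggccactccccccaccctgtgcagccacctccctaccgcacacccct
The motifs searched, on both strands, were the CCAAT box (CCAAT), the GC box (GGGCGG) and the TATA box (TATAAA). Of the 55 genes, 40 had a RefSeq promoter window, and their 44 windows were read over the 250 bases before the start. A GC box was present in 24 of the 44 windows and in 32.7% of all 32851 promoter windows. A CCAAT box was present in 14 windows (33.8% of all) and a TATA box in 5 (12.4% of all). These matches describe letters only and show no bound factor.

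The 7 libraries held between 45758003 and 141353017 unique molecular identifiers (UMIs), and 43346 of 65049 barcodes had 500 to 7000 genes and at most 10% mitochondrial counts. Of these cells, 37376 fell into 13 types named from marker genes, which were clustered with the collagen and laminin genes left out, and 5970 stayed unnamed. In cKO libraries 2 and 3 the filter kept 49.8% and 47.2% of barcodes, against 70.2% to 74.7% in the other 5. Any pair of libraries shared at most 70 barcodes, or 1.48% of the smaller library. Prdm16 itself stood at 74.6, 63.5 and 68.6 counts per 1e6 (CPM, a gene's UMIs over 1e6 UMIs of all genes in that cell type and library) in NSC-like cells of the control libraries and at 56.7, 54.7 and 47.8 in the cKO libraries. It was also lower in ependymal-like cells (27.6, 22.9 and 20.3 against 16.2, 11.3 and 11.8), whereas in astrocyte-like cells the groups overlapped (53.0, 45.8 and 46.3 against 45.4, 60.1 and 51.0). These 3′ UMIs need not come from the deleted part of the gene, so the remaining level does not measure the deletion. In the DKO library Vcam1 stood at 176 CPM in astrocyte-like cells, against 309 to 394 in the other 6.

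Control library 2 stood apart in the vascular and microglial data and, at low levels, in neural types. When vascular cells were clustered again, 1228 of the 1291 cells of 2 clusters came from it. These cells carried Col3a1, Col6a1, Col6a3 and Col18a1 but little Col4a1, had no marker set of a named type and were left out of all types. In the microglia-like cells of the same library Col3a1 stood at 665 CPM, Col1a2 at 270.1 and Col1a1 at 149.9, whereas the other 6 libraries reached at most 4.76, 2.34 and 1.34. The microglia-like means of these 3 genes rest on that library, and of their fibrillar collagens only Col27a1 is described. Col3a1 reached 4.10 CPM in TAP-like cells of this library, against at most 0.189 in the others, and the 6 beaded filament collagens summed to 7.69 there, against at most 1.61. The same sum was 8.26 in NSC-like (at most 3.92 in the others), 9.87 in neuroblast-like (3.26), 51.3 in oligodendrocyte-like (16.1) and 170.4 CPM in neuron-like cells (122). Col6a1 in neuron-like cells, at 142 CPM in this library and 60.3 to 102 in the others, is part of that last sum.

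All 55 members were detected, and most were highest in cells of the vessel wall or in fibroblasts. At least 100 UMIs were counted in the named types for 52 of the 55 genes. The other 3, Col6a6, Col10a1 and Col24a1, had 30, 31 and 57 UMIs and are not ordered. Of the 52, 35 had their highest mean in a vascular or fibroblast type, with 23 in fibroblast-like, 7 in pericyte-like and 5 in smooth muscle-like cells. The other 17 were highest in OPC-like (5), ependymal-like (4), neuron-like (4), oligodendrocyte-like (3) or microglia-like cells (1). In 20 of the 52 genes, every library's value in the first type lay above every library's value in the second. This order covers the named types alone. Unnamed cells held 65.1% of the UMIs of Col6a3, 50.2% of Col18a1 and 43.8% of Col9a1. They also held 43.2% of Col8a1, 42.6% of Col3a1 and 40.0% of Col9a3. Levels are compared between cell types within a gene, since a CPM from 3′ reads is not per length, and a ratio of a pair of genes is compared only between types or libraries. Fibroblast-like cells numbered 121, and control library 2, with 8 of them, is left out of their means.

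**Figure D1:**
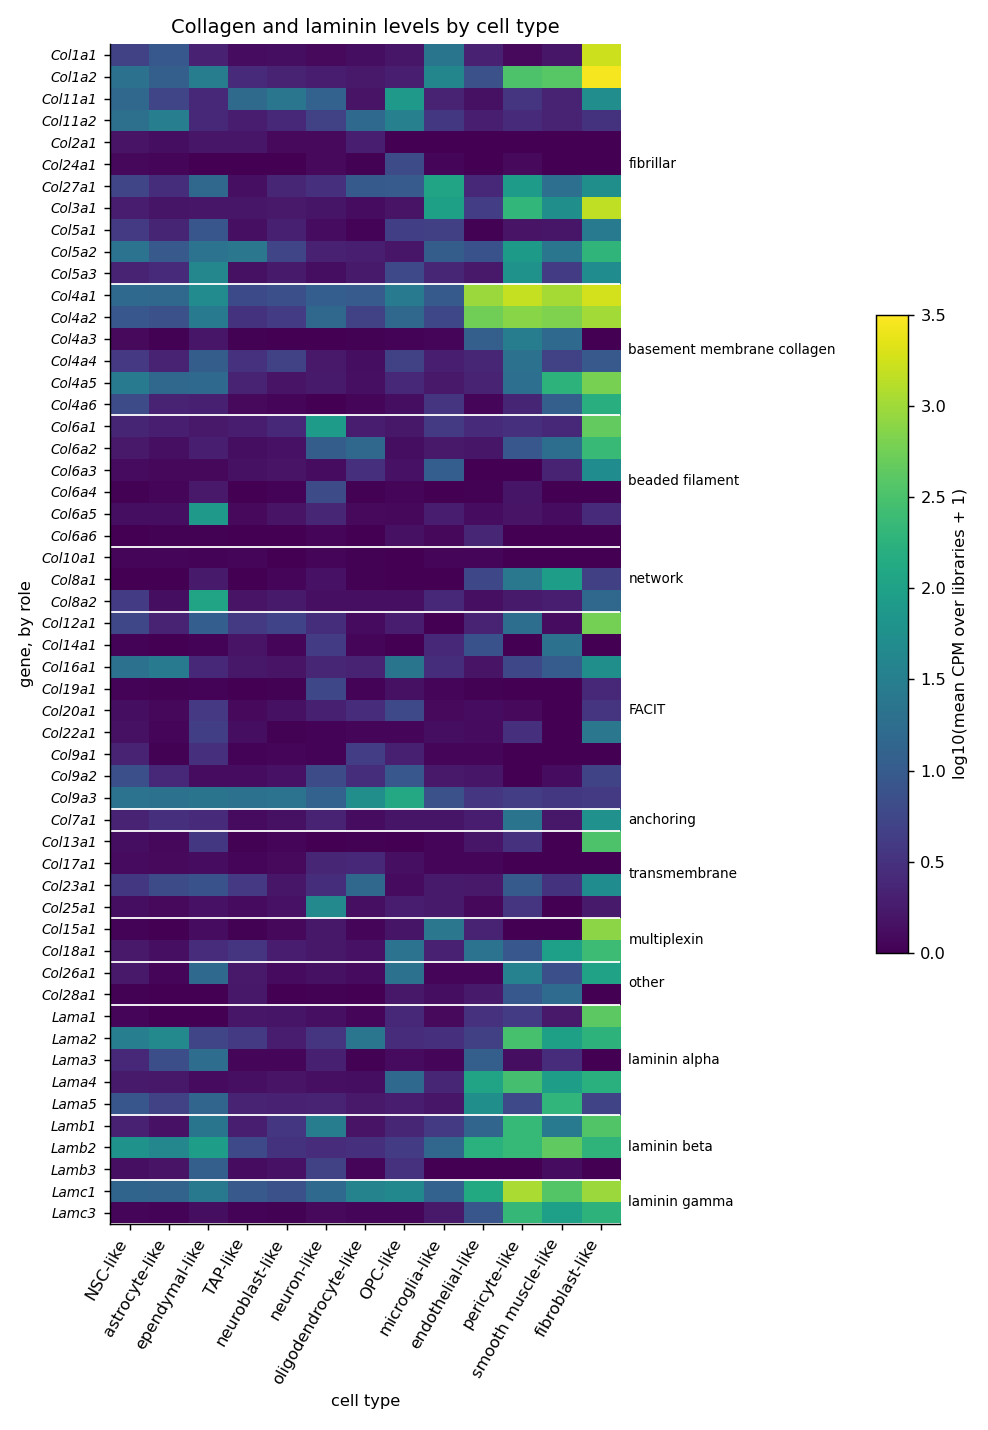
Mean level of the collagen and laminin genes reported here (rows, ordered by role) in 13 cell types (columns), as log10 of CPM plus 1, averaged over libraries with at least 10 cells of the type. The brightest fields stand in the fibroblast-like, pericyte-like, smooth muscle-like and endothelial-like columns, with separate maxima for Col8a2 and Col6a5 in ependymal-like, Col9a3 in OPC-like and Col25a1 in neuron-like cells, and with Col1a1, Col1a2 and Col3a1 of microglia-like cells raised by control library 2.

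The main chains of the basement membrane network, Col4a1 and Col4a2, were highest in the vascular and fibroblast types. Col4a1 stood at 1815 ± 482 CPM in fibroblast-like cells (SD, n = 6), 1549 ± 281 in pericyte-like, 1057 ± 132 in smooth muscle-like and 927 ± 80.4 in endothelial-like cells (SD, n = 7 each). The fibroblast-like and pericyte-like ranges overlapped, as did the smooth muscle-like and endothelial-like ranges, while the lowest pericyte-like value (1246) lay just above the highest smooth muscle-like value (1243). No library of any other type exceeded 61.8 CPM, which was reached in ependymal-like cells. Col4a2 followed the same order of means, with 1030.2 ± 332, 747 ± 149, 659 ± 84.0 and 548 ± 77.6 CPM, and each type overlapped with its neighbour in that order. The order depends on how cells were named, since calling cells one by one by markers gave 1491 CPM of Col4a1 in smooth muscle-like, 1358 in pericyte-like, 1318 in fibroblast-like and 857 in endothelial-like cells.

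The ratio of Col4a2 to Col4a1 UMIs was higher in neuron-like cells than in any other type. Its mean over libraries lay between 0.425 in oligodendrocyte-like and 0.632 in smooth muscle-like cells over 11 types, and single libraries of these types ranged from 0.216 to 0.827. In neuron-like cells the ratio was 1.41 on average, and the 7 libraries ranged from 1.14 to 1.95, on 476 UMIs of Col4a2 and 351 of Col4a1. The neuron-like values lay above those of every other type shown, although both genes were low there, at 13.9 ± 1.94 and 10.0 ± 1.74 CPM (SD, n = 7). Microglia-like cells had too few UMIs of these genes for a ratio. The ratio did not overlap between control and cKO libraries in 3 types, which were named after their values were seen and not tested. In TAP-like cells it was 0.216, 0.381 and 0.423 in control and 0.622, 0.615 and 0.480 in cKO. In ependymal-like cells it was 0.469, 0.521 and 0.515 in control and 0.587, 0.586 and 0.674 in cKO. In neuron-like cells the order was the opposite, with 1.41, 1.95 and 1.504 in control and 1.25, 1.35 and 1.14 in cKO.

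**Figure D2:**
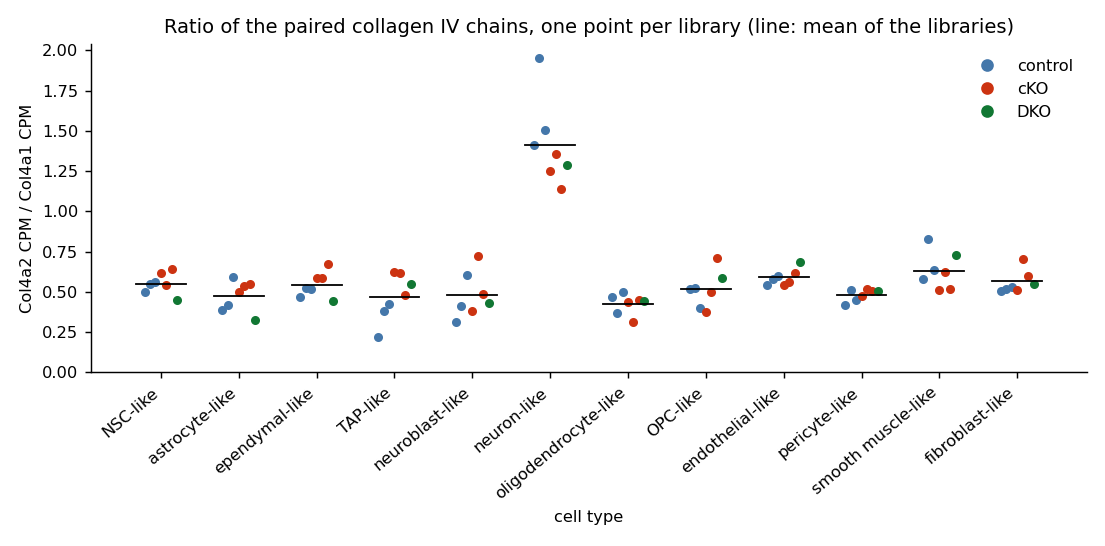
Ratio of Col4a2 to Col4a1 UMIs in each library (points; control, cKO and DKO marked) by cell type, with the mean over libraries as a line. The 7 neuron-like values, 1.14 to 1.95, stand above all others, which reach at most 0.827.

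The alternative type IV chains were more restricted. Col4a5 and Col4a6, which face each other on the X chromosome (starts at 141475385 and 141474076) and encode chains of a second trimer, were highest in fibroblast-like cells, at 608 ± 66.9 and 159 ± 35.9 CPM (SD, n = 6). Col4a5 was next highest in smooth muscle-like cells (183 ± 37.0), where Col4a6 stood at 10.4. Both were also present in NSC-like cells, Col4a5 at 26.0 ± 3.72 and Col4a6 at 5.31 ± 1.14. Col4a3 and Col4a4, the chains of the trimer known from kidney and lung, were highest in pericyte-like cells at 28.3 ± 10.3 and 19.4 ± 6.44 CPM (SD, n = 7), with ranges that overlapped those of their second types.

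Among laminins, the alpha chains, which carry the receptor-binding end of the trimer, divided by cell type. Lama1, the chain of the earliest embryonic laminins, stood at 420.5 ± 73.0 CPM in fibroblast-like cells (SD, n = 6) and at no more than 3.03 on average in any other type. Lama2, the chain of merosin, was highest in pericyte-like cells (301 ± 54.6). It also stood at 43.8 ± 8.67 in astrocyte-like, 30.8 ± 11.6 in NSC-like and 23.0 ± 3.48 in oligodendrocyte-like cells. OPC-like and microglia-like cells each held 0.215% of its 7452 UMIs over all cells kept. Lama4 and Lama5, the vascular alpha chains, differed in their balance. The UMI ratio of Lama4 to Lama5 was 1.41 to 2.53 over the 7 libraries in endothelial-like cells and 0.188 to 0.686 in smooth muscle-like cells, without overlap. Lama5 was highest in smooth muscle-like cells at 199 ± 36.6 CPM, and its lowest library there (162) lay above the highest endothelial-like library (74.1). Lama3, an epithelial chain, was highest in ependymal-like cells at 16.6 ± 3.34 CPM.

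The beta and gamma chains were spread more widely. Lamc1, the gamma chain of most laminins, stood at 1150.2 ± 199 CPM in pericyte-like (SD, n = 7), 927 ± 169.7 in fibroblast-like (SD, n = 6), 369 ± 124 in smooth muscle-like and 131 ± 12.8 in endothelial-like cells (SD, n = 7 each). It also reached 41.9 ± 3.31 in OPC-like and 36.1 ± 4.10 in oligodendrocyte-like cells. Lamc3 stood at 212 ± 25.5 in pericyte-like and 179.7 ± 31.2 in fibroblast-like cells, whose ranges overlapped, and at 94.8 ± 27.1 in smooth muscle-like cells. Lamb2 was highest in smooth muscle-like cells at 436 ± 87.9 and, outside the vasculature, in ependymal-like (87.5 ± 22.1), NSC-like (62.2 ± 15.7) and astrocyte-like cells (40.1 ± 6.80), against at most 13.1 on average in the remaining neural types and microglia-like cells. The 2 major beta chains were exchanged between types. The ratio of Lamb1 to Lamb2 UMIs averaged 1.84 in fibroblast-like and 1.02 in pericyte-like cells but 0.0798 in endothelial-like and 0.0185 in NSC-like cells.

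Fibrillar collagens were led by fibroblast-like cells. Col1a2 stood there at 2799.6 ± 489 CPM, Col1a1 at 1702 ± 469 and Col3a1 at 1439.9 ± 365 (SD, n = 6). Col1a1 and Col1a2 encode the 2 chains of type I collagen, and they parted in the cells named pericyte-like and smooth muscle-like. Col1a2 reached 394 ± 110.0 CPM in smooth muscle-like and 333 ± 67.6 in pericyte-like cells (SD, n = 7), whereas Col1a1 had values above 0 in only 1 library of each of these types, at 4.48 and 1.54 CPM. A cluster of 37 vascular cells from all 7 libraries, in which smooth muscle markers (Acta2, Tagln, Mylk and Des) led but which was left unnamed and is in none of these means, held both, with Col1a1 at 447 and Col1a2 at 1354 CPM, beside Col4a1 at 5472. Col1a2 was also detected in some neural types, at 10.4 ± 7.34 in astrocyte-like, 20.1 ± 5.83 in NSC-like and 29.2 ± 8.42 in ependymal-like cells, against 0.754 ± 0.808 in oligodendrocyte-like and 1.20 ± 1.19 in neuroblast-like cells. The part of RNA from other cells in these values was not estimated. Col5a2, a minor chain that joins type I fibrils, stood at 20.8 ± 8.47 in NSC-like, 20.3 ± 4.59 in ependymal-like and 23.6 ± 3.56 in TAP-like cells (transit amplifying precursors). These are not its highest types. Of its 5325 UMIs over all cells kept, 121 fibroblast-like cells held 3.96% and 869 pericyte-like cells 5.18%, against 18.8% in 7118 NSC-like cells.

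The type XI chains, known from cartilage, were both highest in OPC-like cells (oligodendrocyte precursors) of the main clusters. Col11a1 stood there at 76.3 ± 14.8 CPM, ahead of fibroblast-like cells at 50.8 ± 19.7 (SD, n = 6) and neuroblast-like cells at 22.7 ± 9.53. Col11a2 stood at 32.9 ± 6.57 in OPC-like, 30.1 ± 17.6 in astrocyte-like, 18.5 ± 11.7 in NSC-like and 14.8 ± 3.15 in oligodendrocyte-like cells, with overlapping ranges. Col27a1 was highest in microglia-like cells at 110.0 ± 30.2 and overlapped with pericyte-like cells at 83.8 ± 29.4. Leaving out control library 2 barely bears on it, as its value there (92.7) lay within the range of the others (59.3 to 150.4).

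The balance of chains known to assemble together differed between cell types. Among the beaded filament collagens, Col6a1 stood at 453 ± 172 and Col6a2 at 225 ± 101 CPM in fibroblast-like cells (SD, n = 6), where both are needed for type VI collagen. Col6a1 stood at 81.5 ± 30.2 in neuron-like and 0.907 ± 1.13 in oligodendrocyte-like cells, and Col6a2 at 9.91 ± 4.93 and 14.4 ± 13.4 (SD, n = 7). The UMI ratio of Col6a2 to Col6a1 was 0.0686 to 0.149 over the neuron-like and 5.92 to 55.0 over the oligodendrocyte-like libraries. The oligodendrocyte-like value of Col6a2 is drawn up by control library 2 (44.3 CPM), and the other 6 libraries lay between 6.11 and 11.96. Col6a5, an alternative to Col6a3 in type VI collagen, was almost restricted to ependymal-like cells, which held 90.5% of its 2187 UMIs over all cells kept.

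Ependymal-like cells also led in Col8a2, a network collagen of the basement membrane of the corneal endothelium, at 110.3 ± 24.3 CPM, and every library there (78.0 to 142) lay above every fibroblast-like library. Its usual partner Col8a1 was instead highest, among the named types, in smooth muscle-like cells, at 87.3 ± 30.4. In the unnamed cluster of 37 vascular cells Col8a1 stood at 460 CPM. OPC-like cells led in Col9a3, a fibril-associated collagen, at 127 ± 27.0 CPM, followed without overlap by oligodendrocyte-like cells at 52.9 ± 9.53 (SD, n = 7). The OPC-like level depends on where that type is bounded, since clusters of resolution 0.3 gave 359 CPM for Col9a3 and 26.9 for Col11a1. That value of Col11a1 lies below its fibroblast-like mean of the main clusters. Neuron-like cells led in Col25a1, a transmembrane collagen of neurons, at 43.0 ± 10.1. Among the named types, fibroblast-like cells led in Col12a1 (581 ± 60.9), Col13a1 (333 ± 88.8), Col15a1 (772 ± 318), Col18a1 (252 ± 138) and Col26a1 (101 ± 10.6; SD, n = 6). Col18a1 stood at 367 CPM in the unnamed cluster of 37 cells. In the 2 unnamed clusters drawn mainly from control library 2 it stood at 414 and 452. Col15a1 and Col18a1 encode the multiplexins of vessel basement membranes, and Col15a1 was next highest in microglia-like cells at 23.7 ± 5.35 CPM.

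The effect of Prdm16 deletion was then tested in each type on UMIs summed per library, with edgeR's quasi-likelihood test and Benjamini-Hochberg adjustment over all genes tested in that type. Of the 13 types, 1 held a member that passed an adjusted p of 0.05, and the other 12 held none. In astrocyte-like cells 1 of the 16 members that passed the filter on low counts was called, lower in cKO, where 1.17% of the 12278 genes tested were called, 0.187% lower and 0.986% higher. That gene was Col5a2. It stood at 17.1, 11.6 and 12.3 CPM in the control libraries, at 5.36, 4.01 and 1.79 in the cKO libraries and at 7.41 in the DKO library. All cKO values and the DKO value thus lay below all control values. Col5a2 changed by a log2 fold change of -1.92 (SE 0.38; edgeR, adjusted p = 0.0161). By an exact two-sided permutation test on CPM its p was 0.1, which is the smallest that 3 libraries against 3 can give. The ratio of mean CPM plus 1 was -1.43 on the log2 scale within libraries 1 and 2 of each group (Cell Ranger 6.0.1). Between library 3 of each group (version 6.1.1) it was -2.25, which is 1 library against 1 and has no spread. The call was lost when any control library, cKO library 2 or cKO library 3 was left out, with a log2 fold change of -1.48 to -2.02 and an adjusted p of 0.0618 to 0.132 (edgeR), and with at most 5% mitochondrial counts. It held without the DKO library (adjusted p = 0.0178, edgeR) and without cKO library 1.

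Of the other 4 fibrillar collagens tested in astrocyte-like cells, edgeR called 0 and DESeq2 called 2, Col1a2 (adjusted p = 0.0155) and Col11a2 (adjusted p = 0.0482). DESeq2 called 171 genes higher and 39 lower in all. Col1a2 stood at 17.5, 19.4 and 15.8 CPM in control, at 9.49, 1.60 and 2.09 in cKO and at 6.56 in the DKO library (log2 fold change -1.90, SE 0.46; edgeR, adjusted p = 0.0819). Its groups did not overlap, and cKO library 1 was the nearest to control. It was called in 6 of 16 alternatives, over which its adjusted p reached 0.326. Col1a1 stood at 13.6, 14.5 and 8.99 in control and at 8.25, 6.41 and 2.68 in cKO (log2 -1.12, SE 0.38; edgeR, adjusted p = 0.230). Col11a2 stood at 44.4, 59.5 and 32.9 in control, at 31.8, 12.02 and 14.0 in cKO and at 16.0 in the DKO library (log2 -1.16, SE 0.36; edgeR, adjusted p = 0.243). Col11a1 overlapped between the groups (log2 -0.75, SE 0.45; edgeR, adjusted p = 0.645). Of the members named for their level, Col16a1, a fibril-associated collagen, stood at 33.1, 27.3 and 28.5 in control and 21.9, 28.8 and 16.1 in cKO, with overlap (log2 -0.47, SE 0.21; edgeR, adjusted p = 0.472). Lama2 (44.4, 52.0 and 54.4 in control, 46.6, 28.8 and 37.5 in cKO) and Lamb2 (40.5, 44.6 and 31.6 in control, 40.8, 51.3 and 39.3 in cKO) overlapped as well. In all, 5 of 16 members did not overlap between control and cKO, all of them lower in cKO, against 13.8% of all genes tested in either direction. Their list was drawn up after the values were seen.

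Markers of fibroblasts were measured beside these genes. The 8 fibroblast markers summed to 49.5, 70.2 and 60.9 CPM in control and to 45.8, 31.2 and 55.7 in cKO astrocyte-like cells, 1 marker was lower in every cKO library and 1 was at 0 throughout. The groups overlapped in this sum, and its part in the fibrillar collagen values was not tested. The summed astrocyte markers stood at 4583 to 4857 in control and 5358 to 5612 in cKO libraries.

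When cKO library 1 was left out, 5 members were called in astrocyte-like cells, among 319 genes higher and 232 lower of the 12465 tested. They were Col5a2, Col1a2, Col1a1 and Col11a2, lower in cKO, and Lama3, higher. In these members cKO library 1 was the cKO library nearest to control, so leaving it out narrows the cKO group by that choice. With any other control or cKO library left out, 0 members were called in astrocyte-like cells. Lama3 stood at 3.12, 4.54 and 1.10 CPM in control and at 2.89, 14.4 and 10.7 in cKO.

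**Figure D3:**
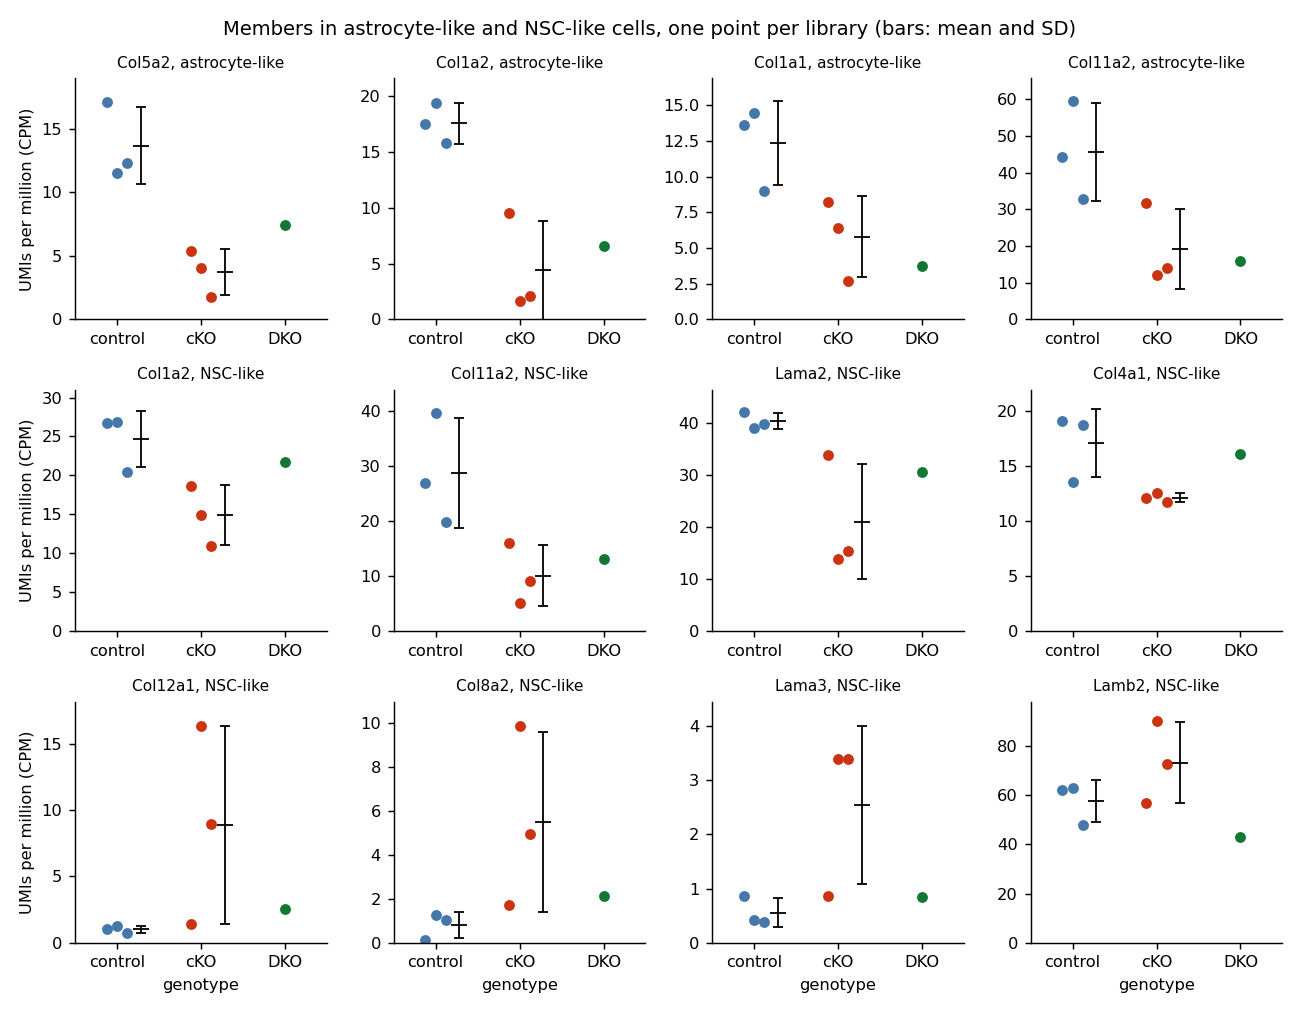
Level in CPM of named members in astrocyte-like (first row of panels) and NSC-like cells of each library (points, by genotype), with the mean and SD of the 3 control and 3 cKO libraries. Col5a2 in astrocyte-like cells is the gene that passed the adjusted threshold, at 1.79 to 5.36 CPM in cKO against 11.6 to 17.1 in control libraries.

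In NSC-like cells 0 of 31 tested members were called by edgeR, against 0.165% of all 14578 genes tested, all of them higher, 10 members had an unadjusted p under 0.05, and DESeq2 called 3 (Col8a2, Col12a1 and Col11a2). Over all genes 1986 had an unadjusted p under 0.05, and DESeq2 called 485 higher and 65 lower. Control and cKO libraries did not overlap in 11 of the 31, against 17% of all genes tested. Of these 11, 6 were lower and 5 higher in cKO. Most of the higher ones could pass the filter on low counts through cKO or DKO libraries alone, as given below. Of the lower ones, Col11a2 stood at 27.0, 39.6 and 19.8 CPM in control, at 16.1, 5.09 and 9.06 in cKO and at 13.1 in the DKO library (log2 fold change -1.35, SE 0.38; edgeR, adjusted p = 0.168). Lama2 stood at 42.2, 39.2 and 40.0 in control, at 33.9, 13.9 and 15.5 in cKO and at 30.7 in the DKO library (log2 -0.84, SE 0.29; edgeR, adjusted p = 0.254). The 3 control values of Lama2 lay close together, and the cKO mean was 52.2% of the control mean. Lamb2, a beta chain, stood at 61.9, 62.9 and 47.9 in control and 56.9, 90.0 and 72.8 in cKO, with overlapping groups (log2 0.44, SE 0.18; edgeR, adjusted p = 0.325).

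Markers of 5 types moved without overlap in the NSC-like cells. Pericyte markers, whose cells have the highest Lama2 level, summed to 54.2, 21.4 and 37.0 CPM in control and 11.4, 16.3 and 19.4 in cKO, with 3 of 6 lower in every cKO library. Fibroblast markers summed to 76.3, 86.4 and 71.1 in control and 52.4, 32.6 and 64.0 in cKO. Neuroblast markers (369, 372 and 290 in control, 240, 148 and 172 in cKO) and microglia markers (56.1, 63.7 and 53.3 in control, 46.7, 43.1 and 43.5 in cKO) were also lower. Astrocyte markers were higher, at 1560.5, 1591 and 1496 in control and 1672, 2216 and 2254 in cKO. The part of these sums in the member values was not tested.

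The 5 higher ones were Col12a1, Col8a2, Lama3, Col5a3 and Col4a6. Col12a1, a fibril-associated collagen, stood at 1.00, 1.27 and 0.765 CPM in control, at 1.38, 16.3 and 8.94 in cKO and at 2.56 in the DKO library (log2 3.20, SE 0.81; edgeR, adjusted p = 0.138). Col8a2 stood at 0.143, 1.27 and 1.05 in control and 1.73, 9.85 and 4.95 in cKO (log2 2.74, SE 0.76; edgeR, adjusted p = 0.152). Lama3 stood at 0.860, 0.423 and 0.382 in control and 0.865, 3.40 and 3.38 in cKO (log2 2.25, SE 0.67; edgeR, adjusted p = 0.162). Col5a3 (0.717, 0.847 and 0.287 in control, 0.865, 2.38 and 1.81 in cKO) and Col4a6 (4.16, 4.24 and 4.78 in control, 5.88, 7.47 and 5.43 in cKO) did not overlap either. The nearest control and cKO values almost met in Lama3 (0.860 and 0.865) and Col5a3 (0.847 and 0.865). These low levels rest on few UMIs, as NSC-like cells held 7.22% of the 873 UMIs of Lama3 over all cells kept. They held 3.09% of the 1681 of Col5a3 and 4.15% of the 2840 of Col8a2. As the DKO group holds 1 library, the filter on low counts asks for enough UMIs in 1 library only. Without the DKO library 21 members passed it in NSC-like cells, against 31 with it. Col12a1, Col8a2, Lama3 and Col5a3, low in every control library, could thus pass through the libraries where they were high. Nothing is read from their share in the counts of members or from their calls. Col12a1, Col8a2 and Lama3 were higher in ependymal-like than in NSC-like cells of control libraries, and the 7 ependymal markers summed to 198, 223 and 292 CPM in control and 241, 379 and 385 in cKO NSC-like cells, with 3 of the 7 higher in every cKO library. The part of these sums in the values was not tested. In Col12a1, Col8a2 and Lama3 cKO library 1 lay close to the control values. The filter on cells had kept 74.7% of its barcodes and 49.8% and 47.2% in cKO libraries 2 and 3, and the part of this difference in the values was not tested. Without cKO library 1, 1031 genes higher and 638 lower of the 14692 tested were called in NSC-like cells, among them 11 members: Col5a1, Col8a2, Col12a1, Lama3 and Lamb2 higher, and Col1a2, Col5a2, Col9a2, Col11a2, Col27a1 and Lama2 lower. Leaving out a library near to control narrows the cKO group by that choice. With any other control or cKO library left out, 0 members were called in NSC-like cells.

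In ependymal-like cells, which line the ventricle and descend from radial glia, the level of Col6a5 differed most in size among the 28 members tested there. It stood at 149, 152 and 124 CPM in the control libraries, at 44.6, 4.15 and 6.13 in the cKO libraries and at 62.0 in the DKO library. Control and cKO did not overlap, and the 3 cKO libraries were far apart, with library 1 well above the other pair. The log2 fold change was -2.82 (SE 0.80; edgeR, adjusted p = 0.420), so that the fall did not pass the adjustment. Leaving out cKO library 1, the cKO library nearest to control, narrows the cKO group by that choice. The log2 fold change was then -4.56 with an adjusted p of 2.1e-06 (edgeR). Leaving out any other control or cKO library called 0 members in these cells. Within libraries 1 and 2 of each group (Cell Ranger 6.0.1) the log2 ratio of mean CPM plus 1 was -2.58. Between library 3 of each group (version 6.1.1) it was -4.13, which is 1 library against 1 and has no spread.

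The 250 bases upstream of Col6a5 are shown because its level differed most in size among the members tested in ependymal-like cells, read 5′ to 3′ on the gene's minus strand at chr9:105960644-105960893 with the GC box in capitals.
Col6a5: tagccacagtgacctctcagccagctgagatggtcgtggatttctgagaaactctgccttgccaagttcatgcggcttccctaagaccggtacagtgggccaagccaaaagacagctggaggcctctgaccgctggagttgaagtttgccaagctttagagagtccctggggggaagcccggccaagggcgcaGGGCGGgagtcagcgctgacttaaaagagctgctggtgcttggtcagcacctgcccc
The same stretch of Col5a3, a minor chain of type V collagen, which had the lowest p in ependymal-like cells and the opposite direction, lies at chr9:20815068-20815317 on the minus strand. It holds 1 CCAAT box and 2 GC boxes, the latter on the other strand, all in capitals.
Col5a3: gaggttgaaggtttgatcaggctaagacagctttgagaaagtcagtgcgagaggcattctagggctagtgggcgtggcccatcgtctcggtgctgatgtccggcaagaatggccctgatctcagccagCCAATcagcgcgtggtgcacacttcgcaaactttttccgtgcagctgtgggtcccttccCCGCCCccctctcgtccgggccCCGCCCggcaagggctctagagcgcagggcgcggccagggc

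Of the 28 members tested in ependymal-like cells, 0 were called by edgeR, against 0.194% of all 13907 genes tested (0.187% higher and 0.00719% lower), 8 had an unadjusted p under 0.05, as did 1213 of all genes, and DESeq2 called 0 members among 86 genes higher and 22 lower. Control and cKO libraries did not overlap in 6 of the 28, 5 lower and 1 higher in cKO, against 12.8% of all genes tested. Col5a3 was the higher one, at 34.7, 30.2 and 23.0 CPM in control, 36.8, 55.8 and 53.5 in cKO and 49.4 in the DKO library (log2 0.82, SE 0.21; edgeR, adjusted p = 0.178). Col4a1 stood at 58.2, 49.996 and 61.8 in control, at 44.9, 34.4 and 33.9 in cKO and at 52.9 in the DKO library (log2 -0.56, SE 0.16; edgeR, adjusted p = 0.237). Lamb2 stood at 61.5, 99.0 and 61.7 in control and at 96.2, 108 and 114 in cKO, with overlapping groups (log2 0.64, SE 0.19; edgeR, adjusted p = 0.264). Lamb1, its counterpart, stood at 40.0, 35.4 and 24.3 in control, at 24.6, 5.34 and 4.17 in cKO and at 21.2 in the DKO library. The groups overlapped in Lamb1 (log2 -1.40, SE 0.61; edgeR, adjusted p = 0.615). The UMI ratio of Lamb1 to Lamb2 was 0.358 to 0.650 in the control libraries and 0.256, 0.0495 and 0.0365 in the cKO libraries, and this ratio was not tested.

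Col8a2, the collagen that marks these cells, did not differ beyond the spread, with 127, 142 and 99.7 CPM in control and 119, 125 and 81.7 in cKO (edgeR, adjusted p = 0.935). Without cKO library 1, 186 genes higher and 186 lower of the 13449 tested were called in ependymal-like cells, among them 4 members, namely Col6a5, Lamb1 and Col27a1 lower and Col5a3 higher. Col27a1 had stood at 30.6, 18.7 and 16.6 in control and at 14.8, 2.37 and 3.43 in cKO.

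Markers of other cells were measured in the ependymal-like sums. The 4 choroid plexus markers summed to 2461, 2405 and 517 CPM in control, to 661, 151 and 144 in cKO and to 3221 in the DKO library. Most of this came from 10 cells with at least 10 UMIs of Ttr. With these cells left out, an alternative chosen after seeing the data, Col6a5 stood at 151, 154 and 124 CPM in control, at 44.7, 4.15 and 6.13 in cKO and at 63.4 in the DKO library. The fibroblast markers summed to 164, 135 and 158 CPM in control and 118, 66.4 and 92.3 in cKO, with 3 of 8 lower in every cKO library and 1 at 0 throughout, and the part of fibroblast RNA in Col1a2 (35.6, 34.4 and 39.5 in control against 29.6, 23.7 and 14.5 in cKO) was not tested. The oligodendrocyte markers summed to 577, 376 and 374 in control and 239, 164 and 301 in cKO, and the smooth muscle markers to 393, 536 and 566 in control and 650.2, 909 and 751 in cKO, both without overlap. Their part in the values was not tested.

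**Figure D4:**
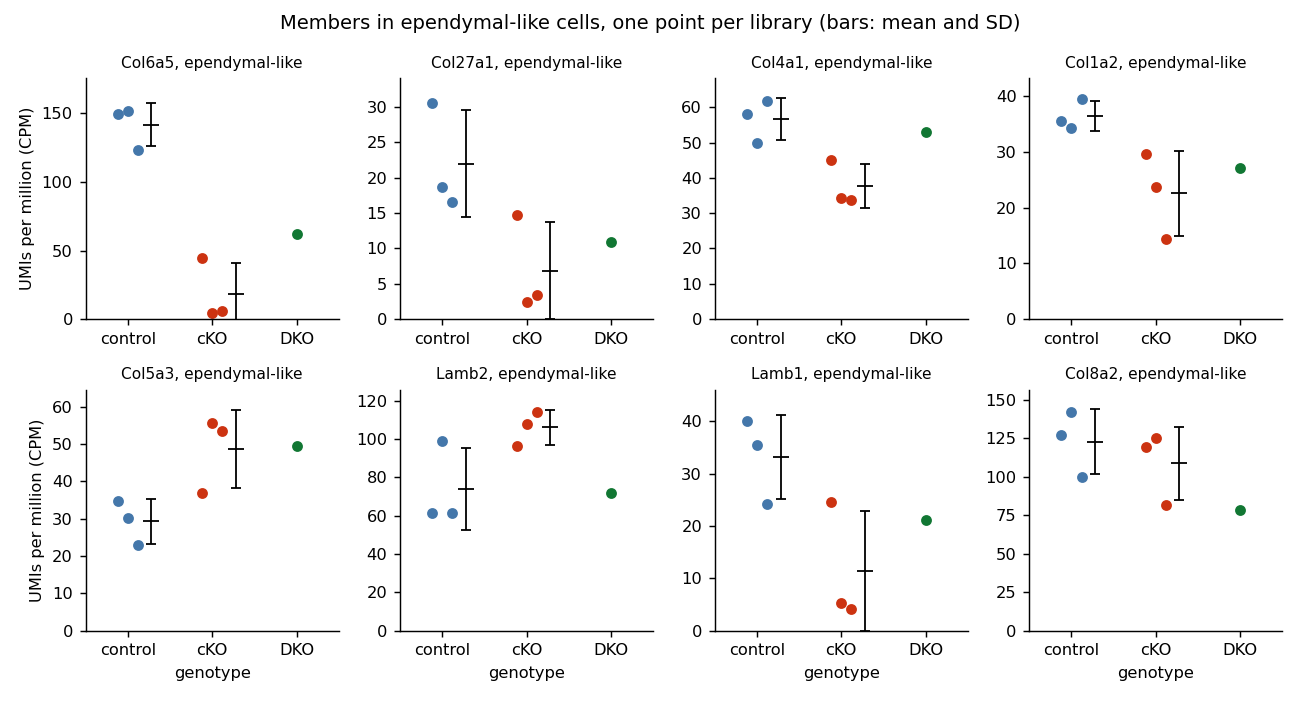
Level in CPM of 8 members in ependymal-like cells of each library (points, by genotype), with the mean and SD of the 3 control and 3 cKO libraries, drawn from 0 where the SD exceeds the mean. Col6a5 lies at 124 to 152 CPM in control and at 4.15 to 44.6 in cKO libraries, while Col8a2 overlaps between the groups.

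Whether the change differed between cell types was tested with limma on the difference of log2 CPM between a pair of types within each library. Between NSC-like and ependymal-like cells 0 of 37 members and 0% of 15363 genes were called, and 7 members had an unadjusted p under 0.05. Members that passed the filter through 1 of the 2 types are among the 37, and Col6a5, with 0 to 0.861 CPM in NSC-like cells, is one of them, so that no difference is read from it. Between NSC-like and astrocyte-like cells 0 of 31 members and 0% of 14627 genes were called, and 7 members had an unadjusted p under 0.05. The NSC-like cluster also passed all 7 astrocyte markers, so these types are not sharply parted. For Col5a2 the difference was 0.93 (SE 0.14; limma, adjusted p = 0.24), with NSC-like values of 33.5, 24.6 and 23.8 CPM in control and 24.7, 14.6 and 7.73 in cKO. So no difference between types passed the adjustment, which does not show that the types change alike. Unadjusted p-values were not counted over all genes in these tests, so nothing is read from the members' counts. Without cKO library 1, 3 members were called between NSC-like and ependymal-like cells among 173 of 15298 genes. Of these, Col6a5 and Col22a1 had not passed the filter in NSC-like cells and nothing is read from them, and the third was Lama3.

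Along the neurogenic lineage 0 members were called by edgeR. In TAP-like cells 0% of 14766 genes were called in either direction, 7 of 31 members and 1030 genes in all had an unadjusted p under 0.05, and DESeq2 called Col12a1 among 100 genes higher and 3 lower. Groups did not overlap in 9 of the 31, against 11.1% of all genes. Without the DKO library 15 members passed the filter on low counts in these cells. Members that passed through 1 group may thus be among the 31, and nothing is read from their count. In neuroblast-like cells 0.0292% of 13684 genes were called, 3 of 22 members and 1162 genes in all had an unadjusted p under 0.05, and DESeq2 called 0 members among 65 genes higher and 3 lower. Groups did not overlap in 4 of the 22, against 13.1% of all genes. Col9a3 stood there at 26.3, 31.6 and 19.3 CPM in control and 18.8, 14.4 and 16.5 in cKO, without overlap (log2 -0.55, SE 0.21; edgeR, adjusted p = 0.530). The gene with the lowest p, singled out after the values were seen, was Col11a1, at 15.7, 10.2 and 17.4 CPM in control, 18.4, 35.7 and 30.3 in cKO and 30.8 in the DKO library (log2 0.98, SE 0.27; edgeR, adjusted p = 0.422). Without cKO library 1, Col12a1 was called in TAP-like cells and Col11a1 in neuroblast-like cells, both higher in cKO. Over all genes that fit called 212 higher and 59 lower of 14727 in TAP-like cells and 213 higher and 111 lower of 13693 in neuroblast-like cells. With any other control or cKO library left out, 0 members were called in either type. Markers of other stages moved in these cells without overlap. NSC markers in TAP-like cells summed to 573, 433 and 533 CPM in control and 634, 742 and 1015 in cKO, with 1 of 6 higher and 1 lower in every cKO library. Endothelial markers there summed to 22.6, 33.8 and 21.3 in control and 11.3, 10.8 and 19.6 in cKO, and TAP markers in neuroblast-like cells to 74.4, 62.5 and 59.9 in control and 51.7, 27.5 and 31.1 in cKO. Their part in the member values was not tested.

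In neuron-like, oligodendrocyte-like, OPC-like and microglia-like cells edgeR and DESeq2 called 0 of 19, 29, 13 and 12 tested members, where edgeR called 0.0605%, 0%, 0% and 0% of all genes and DESeq2 38, 4, 1 and 1 genes. Members with an unadjusted p under 0.05 numbered 4, 5, 1 and 1, and genes 422, 252, 517 and 323. Groups did not overlap in 6, 6, 3 and 1 members, against 7.78%, 6.3%, 11.3% and 9.97% of all genes. Col9a3, the leading collagen of OPC-like cells, stood at 140.0, 176 and 108 CPM in control and 89.5, 124 and 123 in cKO, with overlapping groups. Oligodendrocyte markers in the OPC-like cells summed to 514, 813 and 641 in control and 387, 438 and 479 in cKO. Col25a1 in neuron-like cells stood at 60.2, 44.2 and 43.8 in control, at 37.2, 27.7 and 39.4 in cKO and at 48.5 in the DKO library, without overlap between control and cKO (log2 -0.40, SE 0.22; edgeR, adjusted p = 1). Lamb1 in the same cells stood at 31.1, 37.1 and 33.6 in control and 29.2, 20.1 and 22.1 in cKO, also without overlap, and Col6a1 at 102, 142 and 66.6 and at 65.9, 70.6 and 60.3, with overlap. Microglia markers in neuron-like cells summed to 22.5, 22.1 and 23.7 CPM in control and 12.2, 8.99 and 18.1 in cKO, with 2 of 6 lower in every cKO library, and smooth muscle markers to 9.26, 5.44 and 8.72 in control and 10.1, 13.1 and 15.9 in cKO. The part of these sums in the values was not tested.

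In the vascular types no member passed the adjustment. In endothelial-like, pericyte-like and smooth muscle-like cells edgeR called 0 of 16, 21 and 13 members and 0% of all genes, 0 members had an unadjusted p under 0.05 in any of the 3 types, and DESeq2 called 0. Over all genes 220 of 10204, 230 of 8359 and 129 of 5131 had an unadjusted p under 0.05 (edgeR). Groups did not overlap in 3, 1 and 0 members, against 8.56%, 9.02% and 7.7% of all genes. Col4a1 stood at 1006, 831 and 979 CPM in control endothelial-like cells and at 855, 945 and 849 in cKO (log2 0.01, SE 0.19). Lamc1 stood there at 135, 133 and 132 in control and 124, 116 and 121 in cKO, without overlap but at 90.4% of the control mean (edgeR, adjusted p = 1). In pericyte-like cells Lamc1 stood at 1396, 1099 and 921 in control and 1067, 1369 and 923 in cKO, and Col4a1 at 1774, 1246 and 1533 and at 1319, 2010.1 and 1310.3, both with overlap. Between endothelial-like and pericyte-like cells the change differed for 0 of 25 members and 0% of 10724 genes (limma). An unadjusted p under 0.05 was reached by 2 members, a count that was not made over all genes.

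**Figure D5:**
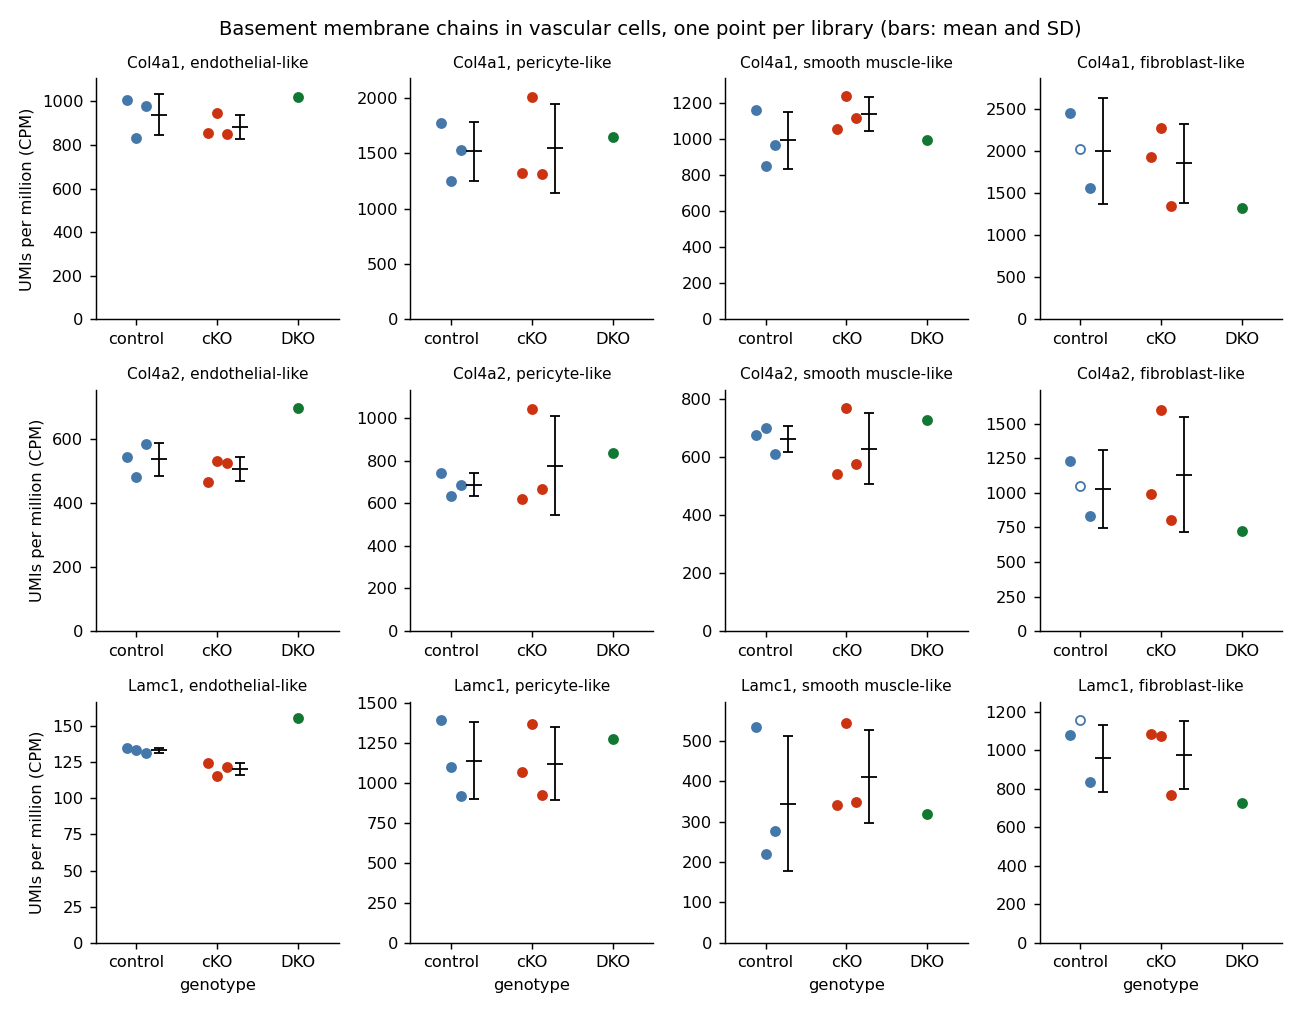
Level in CPM of the leading basement membrane members in endothelial-like, pericyte-like, smooth muscle-like and fibroblast-like cells of each library (points, by genotype), with the mean and SD of control and cKO libraries. The open circle is control library 2, with under 10 fibroblast-like cells. Control and cKO values of Col4a1 in endothelial-like cells (831 to 1006 and 849 to 945) overlap.

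The members with the lowest p in these types did not pass the adjustment. In endothelial-like cells Lamc3 stood at 6.95, 5.52 and 5.73 CPM in control and 9.73, 10.4 and 8.06 in cKO, without overlap, and Col8a1 at 8.68, 7.10 and 5.73 in control and 3.24, 5.69 and 2.97 in cKO, also without overlap. Lamb1 stood there at 18.2, 6.31 and 18.2 in control and at 7.30, 1.90 and 9.76 in cKO, with overlap. TAP markers in these cells summed to 38.2, 42.6 and 31.4 in control and 24.3, 21.8 and 28.001 in cKO, and smooth muscle markers to 36.5, 56.8 and 46.9 in control and 66.5, 59.7 and 75.1 in cKO, both without overlap. In pericyte-like cells Col7a1, the anchoring fibril collagen, stood at 31.9, 28.4 and 17.7 in control and 23.3, 7.87 and 9.22 in cKO. Col5a3 stood in the same cells at 45.5, 33.2 and 54.4 in control and at 44.3, 114 and 52.2 in cKO, so that cKO library 2 alone was far above control. Col12a1 stood there at 15.9, 4.74 and 11.8 in control and 18.6, 23.6 and 15.4 in cKO, with overlap. In smooth muscle-like cells Col3a1 stood at 77.9, 81.7 and 90.6 in control and at 31.9, 0 and 81.2 in cKO, with a log2 fold change of -0.81 that turned to 1.12 when cells were called by markers one by one. Lama4 (117, 49.0 and 82.1 in control, 63.8, 129.96 and 120.3 in cKO) and Lamc1 (535, 221 and 278 in control, 340.1, 544 and 349 in cKO) overlapped between the groups. Ependymal markers were higher in cKO without overlap in both mural types, at 560.2, 685 and 862 in control and 1018, 865 and 959 in cKO pericyte-like cells and at 336, 490.03 and 478 in control and 510.2, 512 and 541 in cKO smooth muscle-like cells. Neuroblast markers in smooth muscle-like cells summed to 48.7, 73.5 and 278 in control and 31.9, 8.12 and 33.1 in cKO. The part of these sums in the vascular values was not tested.

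In fibroblast-like cells, which were few, 0 of 29 members were called by edgeR or DESeq2, against 0.0757% of 5281 genes. Over all genes 242 had an unadjusted p under 0.05 (edgeR), and 1 of these was a member. That member, Col18a1, stood at 525 and 229.5 CPM in control libraries 1 and 3, at 202, 224 and 194 in cKO and at 138 in the DKO library (log2 -0.76, SE 0.35; edgeR, adjusted p = 0.963). The exact permutation p was 0.2, the smallest that 2 libraries against 3 can give. Col6a3 stood at 40.4 and 23.0 in these control libraries and at 76.8, 33.9 and 85.0 in cKO, and Col5a3 at 111 and 45.9 in control and 76.8, 20.4 and 12.1 in cKO, both with overlap. Groups did not overlap in 3 of the 29 members, against 20.1% of all genes. Red blood cell markers summed to 14851 and 33662 CPM in these control libraries and to 76.8 to 287 in the cKO libraries, and their part in the values was not tested.

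The genes that modify, bind or degrade these proteins were counted in the same fits. Of 8 basement membrane partners, 13 receptors, 26 assembly enzymes and 14 turnover genes, called genes were found in astrocyte-like cells alone. In that type 1.17% of all 12278 genes were called, the highest share of any type. Higher in cKO there were 1 of 5 tested partners, Nid1 (nidogen, a linker between laminin and type IV collagen), and 1 of 18 tested enzymes, P4ha3 (a prolyl hydroxylase of collagen). In the same cells endothelial markers summed to 5.45, 17.8 and 20.2 CPM in control and 26.4, 52.1 and 47.7 in cKO, with 3 of 6 higher in every cKO library, and neuroblast markers to 107, 119 and 122 in control and 74.3, 56.1 and 98.9 in cKO, both without overlap. Their part in these calls and in the collagen values was not tested. In NSC-like cells 8, 12, 21 and 11 genes of these lists were tested, and 2, 4, 3 and 2 had an unadjusted p under 0.05, against 1986 of all 14578 genes. In ependymal-like cells 7 of 12 receptors tested had an unadjusted p under 0.05, as did 1213 of all 13907 genes, and 0 were called.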

How the data were processed

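Single cells of the V-SVZ were captured with 10x 3′ v3.1 chemistry in 7 libraries. The values are raw UMI counts per gene and cell, deposited by the authors as filtered matrices made with Cell Ranger on mm10. The file headers name version 6.0.1 for libraries 1 and 2 of control and cKO and 6.1.1 for the others, whereas the submitters' processing notes name 6.1.1. Cells with 500 to 7000 genes and at most 10% mitochondrial counts were kept. They were integrated with Seurat 5.3.0 in R 4.3.3 (30 components, 2000 features, collagen and laminin genes left out) and clustered at resolution 0.15. Vascular cells were clustered again at 0.3, and clusters were named from marker lists. Scrublet (scanpy 1.11.5) marked 949 cells (2.19%) as doublets, which were kept in the main fit. The threshold of 1 library was replaced by the median of the others.

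UMIs were summed per library and type (at least 10 cells) and tested with edgeR 4.0.16 (quasi-likelihood, TMM, filterByExpr), with all libraries in the fit. The DKO group holds 1 library, so filterByExpr asks for enough UMIs in 1 library only. DESeq2 1.42.0 was an alternative, and limma 3.58.1 tested differences between types. The scripts were tested on simulated data. Values per gene and library are CPM, given with the SD over libraries, and single-gene permutation tests on them (scipy 1.17.1) were exact and two-sided. Other alternatives were RLE scaling, no filter, a replicate block (DKO library left out), a version block, leaving out each library or the DKO library, 5% mitochondrial counts, resolution 0.3, doublets left out and a per-cell marker call. Leaving out Ttr-rich ependymal-like cells was added after seeing the data.

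Named with levels were members called in any type, the 4 highest per type, the 3 with the lowest p in 7 types, and their partners. Values by genotype are given for the members called, those with the lowest p and some of the highest. The members and lists were chosen with earlier results of these data known. The values of 1 member are not reported here. Pairing of same-numbered libraries was judged by whether the deviations of all 3 pairs correlated over 0.1, which was met in oligodendrocyte-like cells (0.13 to 0.46). The main fits were unpaired in every type, this one included, and the replicate block was an alternative. In ependymal-like, microglia-like, astrocyte-like and NSC-like cells all 3 were positive but the lowest was 0.086, 0.046, 0.0042 and 0.00031. No library pair held the same values, and chi-square per degree of freedom between replicates was at least 94.5.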

Additional observations from a re-analysis of the deposited data

Results flagged for a closer look

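In endothelial-like cells of the DKO library, which is in the fits but in neither group compared, 3 of the 16 members tested had an exact Poisson counting interval that lay above the values of all 6 control and cKO libraries, as had 3.82% of the 10204 genes tested there. In the other 12 types the same held for 0 of the members tested and for 1.38% to 3.58% of all genes. This interval does not cover the spread between libraries, and the difference was not tested. Col4a2 stood at 699 CPM, Lamc1 at 155 and Lamb1 at 29.1. With 1 library, the genotype and the library cannot be told apart.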

How the results depend on the processing

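The count of members called was 0 in NSC-like cells and became 3 with DESeq2, 2 without the filter on low counts, 2 with the replicate block (fitted without the DKO library, whose omission alone gave 0 here, 1 in astrocyte-like and 0 in ependymal-like cells), and 0 to 11 when single libraries were left out. In astrocyte-like cells it was 1 and became 3 with DESeq2, 4 without the filter, 5 with the replicate block, 2 with Cell Ranger version as a block, 0 with at most 5% mitochondrial counts, 2 with the per-cell marker call, and 0 to 5 with single libraries left out. In ependymal-like cells it was 0 and became 4 without the filter, 2 with the replicate block and 0 to 4 with single libraries left out. In TAP-like cells it was 0 and became 1 with DESeq2, 2 without the filter and 0 to 1 with single libraries left out, and in neuroblast-like cells 0 became 1 without the filter and 0 to 1. For the difference between NSC-like and ependymal-like cells 0 became 0 to 3. The calls over all genes moved as well. In NSC-like cells 24 genes were called higher and 0 lower, against 485 and 65 with DESeq2, 350 and 83 without the filter, 302 and 56 with the replicate block and 1031 and 638 without cKO library 1. The counts fell to 2 and 0 with RLE scaling or at resolution 0.3 and to 4 and 0 with the version block. With the per-cell marker call, or with any control library left out, 0 and 0 were called. In astrocyte-like cells 121 were called higher and 23 lower, against 171 and 39 with DESeq2, 298 and 170 without the filter, 284 and 186 with the replicate block, 173 and 58 with the version block, 122 and 28 with at most 5% mitochondrial counts, 276 and 54 with the per-cell marker call and 319 and 232 without cKO library 1. In ependymal-like cells 26 were called higher and 1 lower, against 252 and 201 without the filter, 135 and 76 with the replicate block and 186 and 186 without cKO library 1. Without the filter 183 were called higher and 55 lower in TAP-like and 174 and 68 in neuroblast-like cells, where the main counts were 0 and 0, and 4 and 0. Leaving out the DKO library alone gave 1 and 0 in NSC-like, 105 and 20 in astrocyte-like and 28 and 1 in ependymal-like cells. The highest count of members in each range came without cKO library 1, of which 74.7% of barcodes were kept against 49.8% and 47.2% in the other cKO libraries, and the cause was not tested. The other 236 recomputed counts, which are counts of members and not of all genes, equalled the main count or stayed within 1.5 times of it. The main count of members called was 0 in every type but astrocyte-like cells and in the differences between types. For these, the rule means only that 0 stayed 0. Under the per-cell marker call Col3a1 in smooth muscle-like cells turned from -0.81 to 1.12 and Col6a3 in fibroblast-like cells from 1.20 to -0.54 on the log2 scale, and neither passed the threshold. Of 46 levels of members in a type, 12 moved by more than 1 SD with the per-cell marker call, 3 at resolution 0.3 and 1 with at most 5% mitochondrial counts. All 3 same-numbered pairs had a correlation over 0.1 in oligodendrocyte-like cells, where the block called 0 members. Few cells limit the fibroblast-like values, and 1 library limits those of the DKO.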
